A study of Glycine max with 23 samples.

Results

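Transcript levels in 5 regions of the soybean seed coat were set against those in the embryo proper, the suspensor and the endosperm of young seeds of the same stage. The question was which genes divide the maternal coat from the filial tissues it encloses. The comparison used 19 of 23 arrays, 10 from the coat and 9 from the filial compartments, with each region and each compartment weighted equally. Of 25686 soybean probe sets tested, 1013 had every coat region mean above every filial compartment mean, and 909 had every coat region mean below them all, where the difference was also called. These 1922 probe sets are named separated below.

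All plants were soybean (Glycine max) cv. Asgrow A3237, untreated and kept at 22 °C, with days of 16 h light followed by 8 h darkness. Seeds came from pods 1.3 to 2.0 cm long, when the embryo was heart-shaped. The coat was captured as outer integument, inner integument, hilum, epidermis and endothelium, with 2 arrays for each, and the filial side as endosperm, suspensor and embryo proper, with 3 for each. They were cut by laser from 8 µm paraffin sections of seeds fixed in ethanol and acetic acid, and a second model of the laser microscope was used for endosperm replicate 3 alone. Whole seeds and young leaves, 2 arrays each, were ground and their RNA was extracted with another reagent. From every sample 2 ng of total RNA was amplified before labelling. The labels call the replicates biological but do not tie them to plants, so p-values measure the spread between these samples only.

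The seed coat grows from the integuments of the ovule and is wholly maternal. The zygote gives rise to the embryo proper and to the suspensor, the stalk that holds it, and the endosperm comes from the fertilised central cell. Because no living cell links the coat to the filial tissues, sugars, amino acids and water leave the coat through membrane proteins before the embryo takes them up. The innermost layer of a legume coat lines the embryo sac, and the outer layers become the hard protective shell.

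Signals are array intensities on a linear scale, and differences and folds are on the log2(signal + 16) scale, with the standard error after ± where it is given. Calls needed an adjusted p under 0.05 (limma, all 10 groups in 1 model) and at least 2-fold, and background was the 95th percentile of the pathogen probe sets on each array. Arrays of 1 group correlated with a median r of 0.915, arrays of different coat regions with 0.857, and coat with filial arrays with 0.798. On the captured arrays background lay between 111.7 and 420.1. Suspensor replicate 1 (420.1) and endosperm replicate 1 (404.9) stood apart, with the next highest at 231.4, and their bioB spike-in controls reached 27849 and 18149 against at most 8979 elsewhere among the captured arrays. The number of arrays limits the precision. In tissue pieces fewer expressing cells and less RNA per cell cannot be told apart.

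The labels were set against marker genes. LEC1-A, a regulator of embryo development, exceeded background on 0 of 10 arrays of the coat and 9 of 9 of the filial side. The other embryo proper markers were H1, above background on 1 coat array, and PHANa, above it on all 10. The summed signal of these 3 markers was 340.4 to 1905 over the coat arrays and 21560 to 24330 over the embryo proper arrays. ANR1, anthocyanidin reductase of proanthocyanidin synthesis, was the coat marker that was high in the coat, with a median of 2406 there and 154.5 in the filial arrays. Its suspensor mean was 1230, and the coat did not pass the test against the suspensor (0.34, adjusted p = 0.74). It was near background in the outer integument (mean 95.3) and reached 16100 in the hilum. Ep, the seed coat peroxidase of soybean, was not a marker at this stage. Its coat arrays spanned 13.9 to 263.4, with 2 of 10 above background, while the suspensor averaged 7560. The 5 leaf markers, 1 for a chlorophyll-binding protein and the others for Rubisco activase, were above background on every coat array and every embryo proper array, with sums of 12380 to 71270 and 54890 to 88940. GA20OX3, listed for the suspensor, was brighter in the embryo proper (mean 723) than in the suspensor (mean 268). No endosperm marker had a tested probe set of its own, so the endosperm label was not checked.

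The coat and the filial tissues differed at many genes, and most of those genes did not divide them cleanly. In the equal-weight contrast 3097 probe sets (12.1%) were called higher in the coat and 2415 (9.4%) lower. Only 32.7% and 37.6% of these were separated, which makes 1013 probe sets (3.94% of those tested) above and 909 (3.54%) below. The other 3590 called probe sets had at least 1 coat region that did not lie beyond every compartment. A stricter rule that put each of the 10 coat arrays above each of the 9 filial arrays held for 253 (0.985%), and the reverse held for 201 (0.783%). The background pathogen probe sets that passed the same filter, 1541 in all, gave 4 separated probe sets. Without both arrays of high background 1052 soybean probe sets were separated above and 1093 below, and 829 and 746 of these were among the 1013 and 909. The stricter rule then held for 340 and 422, so more genes were below than above.

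The space between the nearest coat region and the nearest compartment, here called the gap, had a median of 0.44 on the log2 scale for genes above and 0.40 for genes below. It was at least 2-fold for 189 and 126 probe sets, and at least 4-fold for 44 and 41. At the edge of the rule, MYB109 lay just inside with a gap of 0.028 and WRKY4 just outside with -0.0086. On the other side KTI-2 was just inside (0.0076) and CDPK-BETA just outside (-0.023). The values of the coat and filial arrays chose these genes, so their levels there are given as a description, without a test. Only 334 of the separated probe sets above and 302 of those below have 1 annotated gene, and 57 genes on each side carry a symbol beyond a locus number.

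The 3 filial compartments contributed unequally. Against the embryo proper alone 2754 probe sets (10.7%) were higher in the coat and 2749 (10.7%) lower. Against the suspensor the counts were 4019 (15.6%) and 2879 (11.2%), and against the endosperm 3564 (13.9%) and 3110 (12.1%). These contrasts share the coat arrays. Of the separated probe sets 547 above and 403 below were called against each of the 3 compartments on its own. For separated genes above, the nearest compartment was the embryo proper in 39.6%, the suspensor in 31.5% and the endosperm in 28.9%. Over all tested probe sets the brightest compartment was one of these in 31.8%, 28.4% and 39.8%.

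The coat regions were not alike within the separated genes. The inner integument had the highest coat mean for 373 of the 1013 genes above (36.8%), against 25.6% of all tested probe sets, and the outer integument for 214 (21.1% against 16.5%). The hilum was highest for 120 (11.8% against 21.4%) and was the lowest coat region for 286 (28.2% against 19.3%). In the genes below, the hilum was the coat region nearest to the filial level for 299 of 909 (32.9%, against 21.4% of all tested), and the inner integument the farthest for 372 (40.9% against 29.2%). The regions differed among themselves by the F test for 342 genes above (33.8%) and 226 below (24.9%), beside 25.8% of all tested probe sets. The same arrays defined the separation, so these shares describe the members and do not test them.

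**Figure D1:**
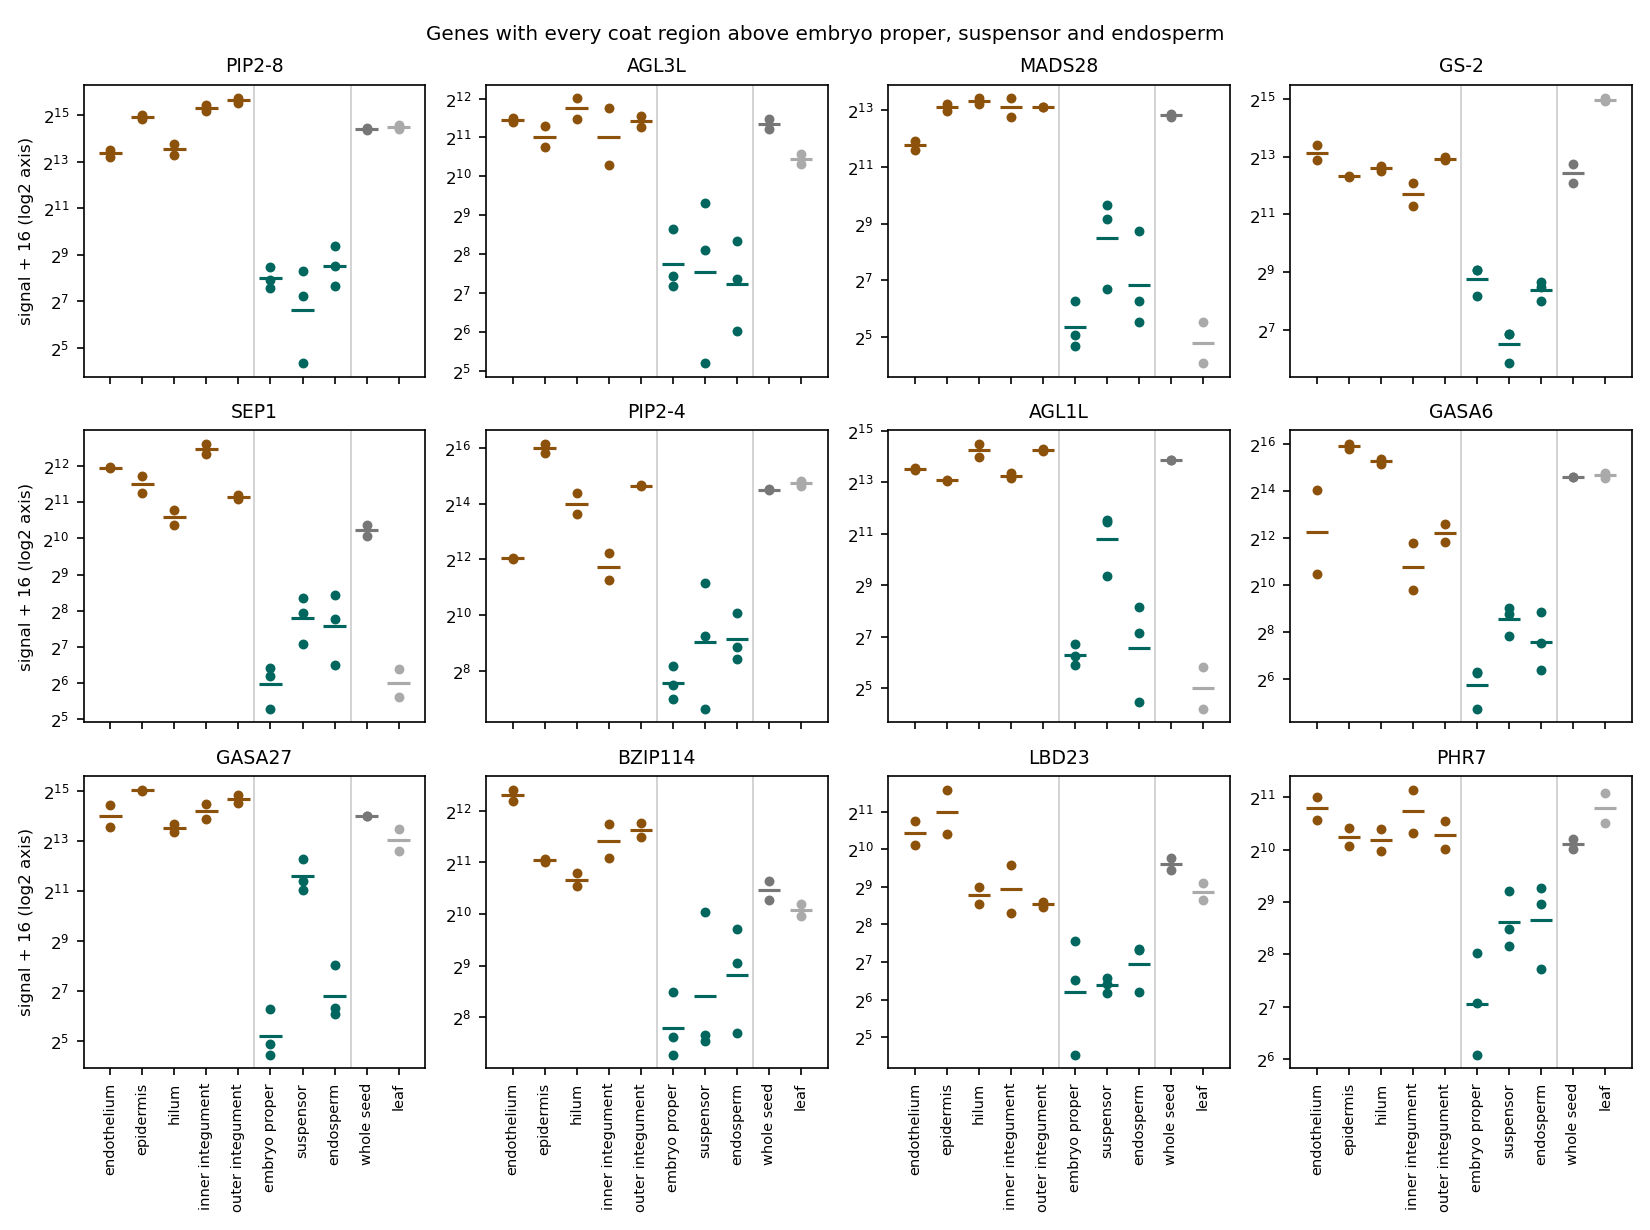
Signal + 16 on a log2 axis for the 12 symbol-bearing genes with the widest gap among those above in every coat array. Each point is 1 array and each bar the mean of the log2 values, with coat regions in brown, filial compartments in green, and whole seed and leaf in greys. No brown point lies at or under a green one. MADS28, SEP1 and AGL1L were low in leaf, and GS-2 was highest there.

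MADS-box transcription factors, which specify floral organs and ovules, were the list with the highest median. Of its 7 tested members 5 were called higher in the coat and 0 lower, and all 5 were separated, beside 12.1%, 9.4% and 3.94% of all tested probe sets. The median difference was 3.82, against -0.027 over all tested probe sets. MADS28 lay between 3087 and 11050 on the coat arrays, with a median of 8782, and between 9.6 and 793.8 on the filial arrays, with a median of 61.5. The sides did not overlap. The endothelium was its dimmest coat region (mean 3460), and 3 of 9 filial arrays were above background, the brightest being suspensor replicate 2. AGL1L had coat signals of 8505 to 23190 (median 11600) and filial signals of 5.9 to 2943 (median 123.4). Its suspensor mean, 2130, exceeded those of the embryo proper (63.5) and endosperm (131) and still lay below every coat array. SEP1, a homolog of the Arabidopsis SEPALLATA floral genes, had coat signals of 1301 to 6307 (median 2917) and filial signals of 22.5 to 330.7 (median 119.1). AGL3L, another MADS-box gene, had coat region means of 2090 to 3490. Its coat arrays lay at 1244 to 4135 (median 2751) and its filial arrays at 20.6 to 617.0 (median 157.0), without overlap.

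On the log2 scale the coat exceeded the filial mean by 5.98 ± 0.39 for MADS28, 5.79 ± 0.37 for AGL1L, 4.43 ± 0.26 for SEP1 and 3.82 ± 0.41 for AGL3L. The fifth member, NMH7, was picked out after its values were seen because it completes the count. It differed by 2.94 ± 0.42, with a mean of 18900 in the hilum, 717 in the endothelium and 114 to 184 in the other regions, and 20.3 to 185 in the compartments. It was separated on means of log2 values, while the linear means of epidermis, inner and outer integument lay under that of the suspensor. Background on the arrays of those 3 coat regions was 138.5 to 231.4, so their order against the compartments is uncertain. AG1 and AP1A were the members not called, with group means of at most 98.7 and 454.

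Aquaporins are the channels that pass water across membranes. Of 19 tested, 9 were called higher and 1 lower, 4 were separated above and 0 below (over all tested, 12.1%, 9.4%, 3.94% and 3.54%), and the median difference was 1.02. All 9 that were higher belong to the plasma membrane (PIP) subfamily, and the 1 that was lower, SIP1-6 (-2.67 ± 0.30), to the small basic subfamily. PIP2-8 had the widest gap of any gene with a symbol. Its coat arrays ran from 9477 to 54900 with a median of 31050, and its filial arrays from 4.0 to 654.0 with a median of 222.6. The brightest filial array was endosperm replicate 1, far under the dimmest coat array, endothelium replicate 1, and the gap between means was 28.7-fold. The difference was 6.85 ± 0.34. Its second probe set gave 5.29 and was separated too.

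PIP2-4 rested on other regions. It ran from 2406 to 72760 over the coat (median 16940), with means of 65400 in the epidermis and 25600 in the outer integument, and 3570 in the inner integument. The filial arrays lay at 82.1 to 2274 (median 330.3), with no overlap, and the difference was 5.11 ± 0.38. PIP2-9 had the opposite order within the coat. Its mean was 15800 in the inner integument and 716 in the epidermis, and the filial arrays lay at 69.4 to 665.5, so epidermis replicate 1 (394.3) fell inside the filial range. Without epidermis replicate 2 the group means of PIP2-9 were no longer separated (gap -0.13). PIP1-7, the fourth separated channel, named after its values were seen, was bright everywhere. Its coat range of 38980 to 157500 overlapped the filial range of 11540 to 46970.

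Among the genes for GASA peptides, small cysteine-rich proteins induced by gibberellin in several plants, the members moved both ways. Of 15 tested, 6 were called higher and 2 lower, and 3 were separated above and 0 below (over all tested, 12.1%, 9.4%, 3.94% and 3.54%). The median was -0.10. GASA27 lay at 10570 to 34350 in the coat (median 22980) and at 5.6 to 5058 in the filial arrays (median 63.8). The suspensor held nearly all of that filial signal, with a mean of 3290 against 27.2 in the embryo proper and 121 in the endosperm. GASA6 had coat signals of 859.5 to 66850 (median 11690) and filial signals of 10.2 to 504.5 (median 167.7), again without overlap. Its epidermis mean was 61900 and its inner integument mean 2170. The differences were 6.43 ± 0.27 for GASA27 and 6.0 ± 0.39 for GASA6. GASA22 differed by 4.42 ± 0.30, but inner integument replicate 2 (219.1) and endothelium replicate 2 lay under the brightest filial array, endosperm replicate 1 (306.5). The members that were lower in the coat, GASA34 (-2.80 ± 0.31) and GASA32, were brightest in the suspensor (28100) and the embryo proper (1730), respectively.

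Jasmonate is made from membrane lipid by lipoxygenases, allene oxide synthase and allene oxide cyclase, and is sensed by the F-box protein COI1. Of 12 genes of that list 5 were called higher and 2 lower, with 4 separated above and 0 below and a median of 0.41. The shares over all tested probe sets were 12.1%, 9.4%, 3.94% and 3.54%. The lipoxygenase LOX9 lay at 1443 to 81770 in the coat (median 27500), with a mean of 80200 in the outer integument. Its filial arrays lay at 158.0 to 8402 (median 399.5). The sides overlapped, since inner integument replicate 2 and endothelium replicate 1 lay under suspensor replicate 1. Leaving out inner integument replicate 1 or endothelium replicate 2 ended its separation (gaps -1.4 and -0.18), though not its call. AOC3, an allene oxide cyclase, lay at 3466 to 15520 in the coat (median 6145) and at 16.1 to 2555 in the filial arrays (median 1264). Here the embryo proper (mean 2450) came near the coat and the endosperm (mean 24.9) was below background. COI1 was measured well above background everywhere, at 4609 to 12180 in the coat (median 8250) and 742.6 to 3442 in the filial arrays (median 2000), without overlap. The differences were 4.79 ± 0.41 for LOX9, 3.93 ± 0.16 for AOC3 and 2.18 ± 0.18 for COI1. Of 4 further COI1 probe sets 3 were called higher, and 1 differed by -0.48 and was not called. AOC4, the fourth separated member, named after its values were seen, differed by 2.48 ± 0.42. LOX3 and AOS1, the members that were lower, reached means of 27100 and 3300 in the suspensor.

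Of the enzymes and transporters of nitrogen, 12 were tested, 5 called higher and 1 lower (over all tested, 12.1% and 9.4%). GS-2, a glutamine synthetase, lay at 2497 to 10650 on the coat arrays (median 6171) and at 42.2 to 530.2 on the filial arrays (median 276.8). No array crossed, and the difference was 4.62 ± 0.19. The endothelium (mean 9060) and outer integument (7780) were brightest. GDH2, a glutamate dehydrogenase, went the other way. Its coat arrays lay at 239.4 to 1536 (median 519.5) and its filial arrays at 2123 to 11320 (median 4724), a difference of -2.81 ± 0.21. The endosperm had its highest mean, 7430, and the hilum its lowest, 257. The other 4 members that were higher (GS1-GAMMA, NRT1-3, GDH1 and EU3) had at least 1 coat region that did not lie above every compartment.

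Further separated genes above came from lists with only 1 or 2 genes separated in that direction. PRX2 lay at 11110 to 61520 in the coat and 626.6 to 7342 in the filial arrays, without overlap (3.80 ± 0.16). Of the 15 genes of the peroxide-scavenging list 2 were called higher and 3 lower (over all tested, 12.1% and 9.4%). PRP1, a proline-rich cell wall protein, had a mean of 27900 in the epidermis and 641 to 3850 in the other regions, against 68.8 to 638 in the compartments. It lost its separation without endothelium, inner integument or outer integument replicate 1 (gaps -0.31, -0.58 and -0.077). ADR11, from a soybean family named for its decrease under auxin, was brightest in the hilum (13800) and outer integument (11800) and differed by 3.68 ± 0.39, with a gap of -0.098 without endothelium replicate 2. ERF3, an ethylene-response factor, differed by 1.12 ± 0.14 without overlap, from 3872 to 9126 in the coat and 1183 to 3806 in the filial arrays. It fell under 2-fold once the endosperm was left out. GSTT1, a glutathione transferase, lay at 1161 to 2057 in the coat and 41.8 to 1054 in the filial arrays, and its second probe set differed by -0.56 and was not called. HSP17.5-E, a small heat shock protein, differed by 2.57 ± 0.49, with suspensor replicate 3 at 1872 inside the coat range. HSP22.3 exceeded background on 3 of 10 arrays of the coat and 0 of 9 of the filial side. Its separation was lost without endosperm replicate 3 or hilum replicate 1 (gaps -0.46 and -0.052).

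Other families of transcription factors had some separated members. Of 49 bZIP genes 12 were called higher and 2 lower, with 4 separated above and 2 below and a median of 0.48. The shares over all tested probe sets were 12.1%, 9.4%, 3.94% and 3.54%. BZIP114 lay at 1479 to 5440 in the coat (median 2513) and 137.5 to 1030 in the filial arrays (median 190.2), a difference of 3.07 ± 0.30 with no overlap. Its brightest filial array was suspensor replicate 1. BZIP101 was bright on both sides, at 7034 to 15410 and 1137 to 5792, and differed by 1.58 ± 0.23. BZIP1 differed by 1.97 ± 0.34 and was not separated without suspensor replicate 2 (gap -0.018). Second probe sets of BZIP101 and BZIP1 differed by 0.82 and 0.14 and were not called. LBD23, of the lateral organ boundaries family, lay at 298.8 to 3074 in the coat (median 625.6) and 6.9 to 174.1 in the filial arrays (median 76.3). It was brightest in the epidermis (mean 2200), and 1 of 9 filial arrays was above background. PHR7, of the phosphate starvation response family, lay at 985.2 to 2246 and 51.4 to 599.3. The coat was higher by 3.02 ± 0.34 for LBD23 and 2.34 ± 0.27 for PHR7.

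Of 49 MYB genes 11 were called higher and 1 lower, and 3 were separated above (over all tested, 12.1%, 9.4% and 3.94%). Without both arrays of high background 5 were lower and 1 was separated below. MYB134 differed by 2.40 ± 0.28 with the inner integument at 6140, MYB109 by 2.53 ± 0.34 and MYB114 by 2.10 ± 0.33. Filial arrays of MYB114 were all below background, which makes its coat level at least 1.16-fold higher. MYB134 was not separated without epidermis replicate 2 (gap -0.14), and MYB109 not without hilum replicate 1 or suspensor replicate 3 (-0.78 and -0.77). In the endothelium (mean 147) and the hilum (mean 76.8) every MYB109 signal was under background, and the suspensor mean was 84.1. For MYB109 the order of these coat regions against the compartments is therefore uncertain. Of 12 NAC genes 3 were called each way, beside 12.1% higher and 9.4% lower over all tested. NAC2 (1.98 ± 0.30) was separated, with its highest mean in the endothelium, 2540.

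The probe set with the widest gap of all in this direction has no gene in the annotation. It lay at 1532 to 7815 on the coat arrays (median 2963) and at 2.7 to 82.7 on the filial arrays, none of them above background. Its coat level was at least 14.2-fold higher. It was also bright in leaf (mean 1770) and whole seed (1410).

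**Figure D2:**
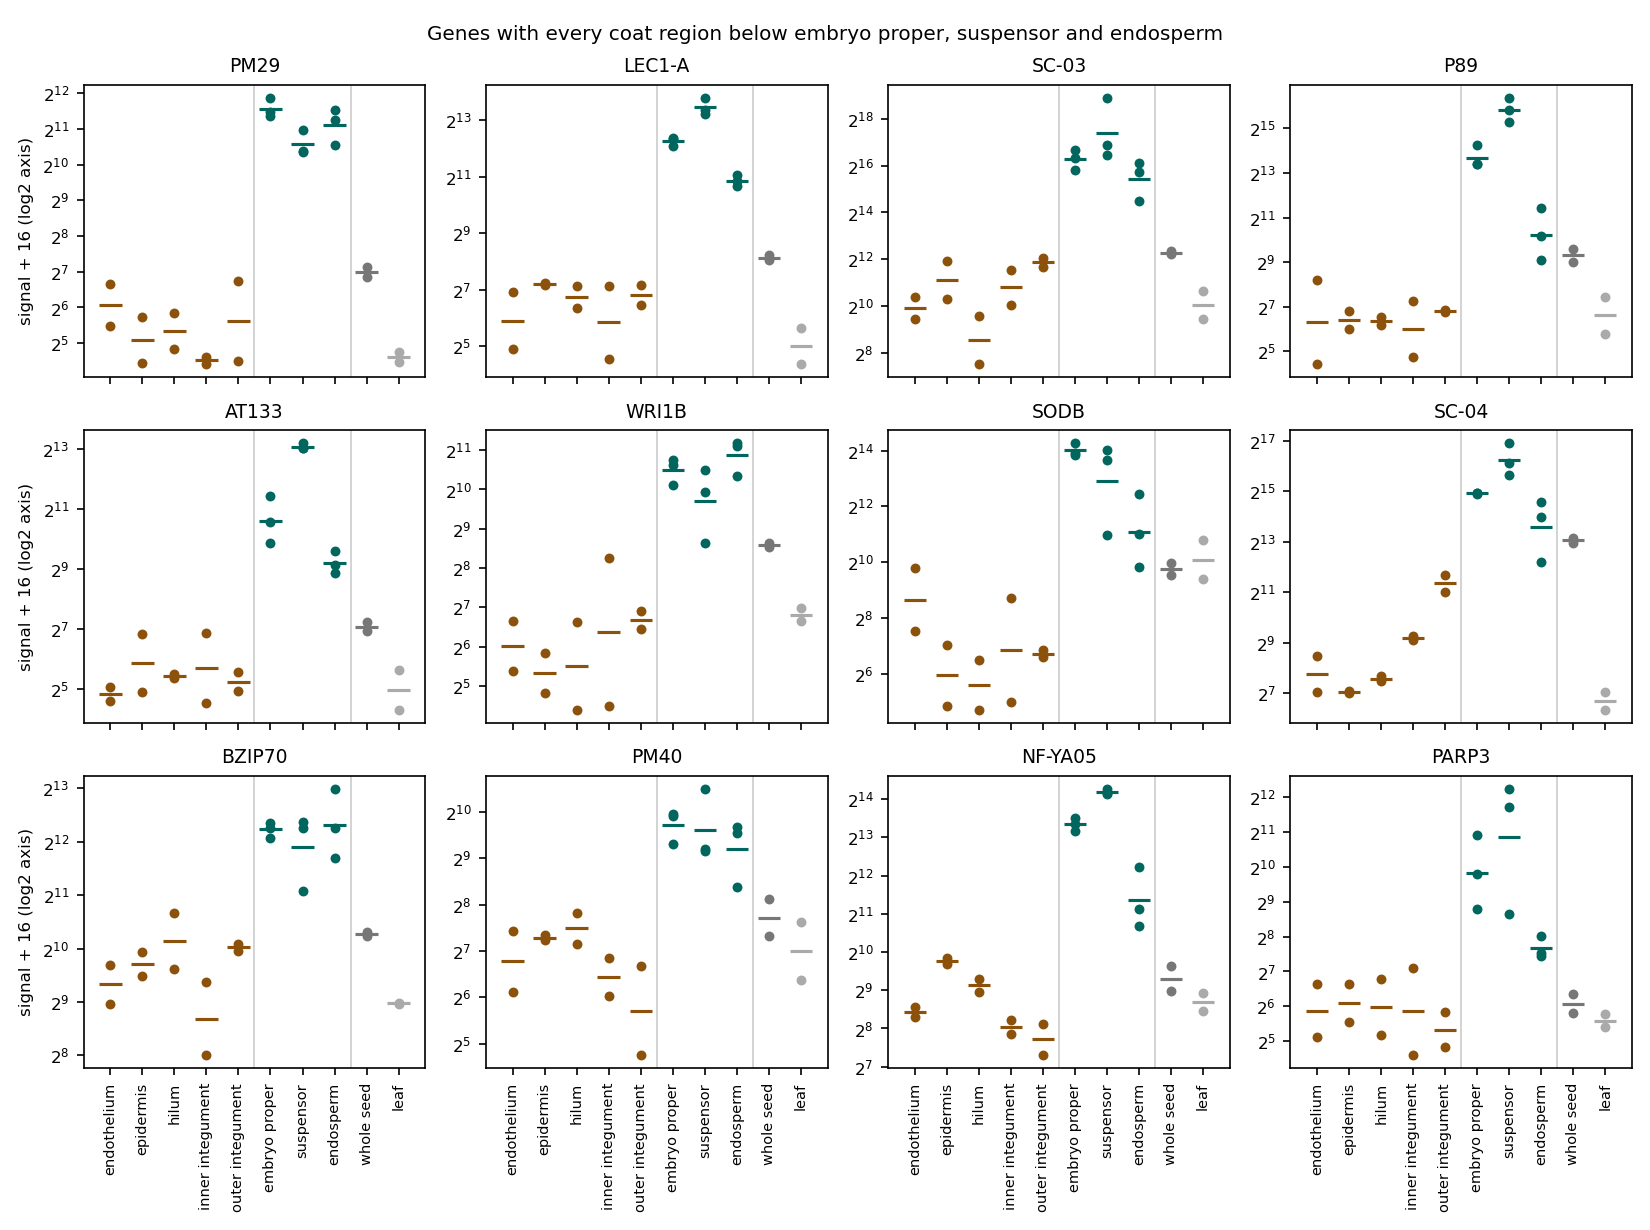
Signal + 16 on a log2 axis for the 12 symbol-bearing genes with the widest gap among those below in every coat array. Points, bars and colours stand for arrays, group means of log2 values and tissues as in the plot of the genes above. All brown points lie under all green ones. SC-04 was brighter in the outer integument (mean 2640) than in the other coat regions, and LEC1-A, PM29 and SC-04 were low in leaf.

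Genes below in every coat region included LEC1-A and WRI1B, the 2 tested genes of the list of embryo and seed regulators. Over all tested probe sets 9.4% were lower and 3.54% separated below. The other embryo proper markers, H1 and PHANa, were not separated. LEC1 is a subunit of the NF-Y transcription factor, required in Arabidopsis for embryo maturation, and WRINKLED1 is an AP2-type activator of fatty acid synthesis in seeds. LEC1-A lay at 7.4 to 133.8 on the coat arrays (median 113.4), under background on all 10, and at 1618 to 14270 on the filial arrays (median 5112). Its suspensor mean (11500) exceeded those of the embryo proper (4940) and the endosperm (1850). The filial level was at least 26.9-fold higher. WRI1B lay at 5.1 to 289.9 in the coat (median 56.7) and 385.1 to 2293 in the filial arrays (median 1427), with 1 coat array above background, and its endosperm mean (1910) was the highest. The coat was lower by -4.37 ± 0.42. NF-YA05, of another NF-Y subunit family, was above background throughout the coat, at 142.0 to 911.1 (median 331.0), and reached 1622 to 19680 in the filial arrays (median 10450). It differed by -4.35 ± 0.20 and was brightest in the suspensor (18700). BZIP70 lay at 240.9 to 1614 in the coat (median 789.8) and 2146 to 8104 in the filial arrays (median 4884), a difference of -2.57 ± 0.23.

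Seed maturation and LEA proteins protect the drying seed, and their genes were mostly dim in the coat. Of 19 tested, 14 were called lower and 1 higher, with 7 separated below and a median of -1.97. Over all tested probe sets 9.4% were lower and 3.54% separated below. Without the pair of arrays of high background, 16 of 23 tested were lower and 9 separated. PM29 lay at 5.4 to 91.2 in the coat (median 20.6), below background on every array, and at 1291 to 3718 in the filial arrays (median 2394). All 3 compartments were close to one another, with means of 3040, 1520 and 2270, and the filial level was at least 12.4-fold higher. PM40 lay at 10.9 to 210.5 and 315.4 to 1431, with 3 coat arrays above background, and differed by -2.77 ± 0.33. PM30 held a narrow coat range, 212.1 to 315.3, and reached 4820 in the suspensor while the embryo proper and endosperm averaged 666 and 564. It differed by -2.11 ± 0.20, and its other probe sets gave -4.81 and -5.69. Over the list, the suspensor was the brightest compartment for 9 of the 14 genes that were lower, and the embryo proper for 5. Against the endosperm alone 6 of 19 were lower (background 12.1%), and against the suspensor 14 of 19 (11.2%). LEA-2 was the exception, higher in the coat by 1.96 ± 0.34.

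Iron superoxide dismutases, which detoxify superoxide in plastids, had some of the largest differences on this side. SODB lay at 10.3 to 865.1 on the coat arrays (median 90.3) and at 892.6 to 19630 on the filial arrays (median 13050), so the brightest coat array, endothelium replicate 1, lay just under the dimmest filial one, endosperm replicate 1. Its difference was -5.91 ± 0.51, with -4.75 for its second probe set. SODB2 differed by -5.96 ± 0.50, but endothelium replicate 1 (8644) lay inside the filial range of 4153 to 54650. In both genes the embryo proper was brightest, with means of 16700 and 45500. Whether their probe sets detect each other's transcripts was not tested.

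Other genes with wide gaps have no role that is stated here. SC-03 lay at 168.5 to 4235 in the coat (median 1274) and at 23180 to 488500 in the filial arrays (median 82330), with the highest value in suspensor replicate 1. SC-04 lay at 111.0 to 3237 (median 260.0) and 4624 to 121500 (median 31000). Both were highest in the suspensor and, within the coat, in the outer integument. P89 lay at 5.6 to 278.9 in the coat (median 84.4) and 532.1 to 84780 in the filial arrays (median 10840), with 1 coat array above background. The coat was lower by -5.93 ± 0.35 for SC-03, -6.33 ± 0.26 for SC-04 and -6.87 ± 0.43 for P89. AT133 was under background on all coat arrays and at least 11.3-fold higher in the filial tissues, at 443.2 to 9217. PARP3, a poly(ADP-ribose) polymerase, was likewise under background in the coat and at least 4.01-fold higher, with 6 of 9 filial arrays above background. The widest gaps among the genes below belonged to LOC100306525 (42.1-fold) and to a probe set without annotation (34.7-fold). LOC100306525 lay at 18.2 to 460.2 in the coat and 8096 to 42360 in the filial arrays.

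The isoflavonoid list holds legume-specific enzymes of the phenylpropanoid pathway. Of its 11 genes 4 were lower in the coat, 1 was higher and 2 were separated below (over all tested, 9.4%, 12.1% and 3.54%). Without both arrays of high background 1 was separated below. IFS1 and CHR5, the separated members, were under background on every coat array. IFS1, an isoflavone synthase, was at least 1.82-fold higher in the filial tissues, with suspensor, embryo proper and endosperm means of 1080, 328 and 92.9. Of its filial arrays 6 of 9 were above background, and those of the endosperm were not. CHR5, a chalcone reductase, averaged 4790 in the suspensor and 45.1 and 69.4 in the other compartments, which is background. Without the suspensor the call of CHR5 was lost (-0.94), and its separation was lost without epidermis replicate 1, embryo proper replicate 2 or endosperm replicate 1 (gaps -0.85, -0.22 and -0.069). IFS1 was not separated without hilum replicate 2 (-0.35). SGR, a stay-green gene of chlorophyll breakdown, showed a like order, with means of 9730 in the suspensor, 3890 in the embryo proper and 168 in the endosperm. SGR was under background on all coat arrays, at least 10.3-fold lower than the filial side. Its endosperm arrays were under background too, with 6 of 9 filial arrays above it. For IFS1 and SGR the signal above background thus came from the suspensor and embryo proper. Coat and endosperm cannot be ordered for either gene, because signals under background have no order.

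The remaining separated genes below had smaller or less even differences. ACCC-2, a biotin carboxylase subunit of plastid fatty acid synthesis, was bright on both sides, at 4862 to 10340 and 12100 to 26400, and did not overlap (-1.45 ± 0.14). In its list of 16 fatty acid and lipid genes 5 were lower and 1 higher (over all tested, 9.4% and 12.1%). BIP2, a chaperone of the endoplasmic reticulum, lay at 1506 to 5281 and 4225 to 11770 (-1.34 ± 0.16), and was not separated without outer integument replicate 2 (gap -0.071). PGIP, an inhibitor of polygalacturonase, averaged 14600 in the suspensor, 418 in the endosperm and 148 in the embryo proper, and 9.35 to 98.0 in the coat regions. PGIP was not separated without outer integument replicate 1 (gap -0.089), and its second probe set differed by -0.37 and was not called. GSTU41 (-3.60 ± 0.18) and GSTF7 (-3.29 ± 0.41), glutathione transferases, came from a list of 20 with 4 called each way (the same shares apply). They were not separated without endothelium replicate 2 (gap -0.15) and epidermis replicate 1 (-0.73), and 1 of the other GSTU41 probe sets differed by -0.19. For GSTF7 every endosperm signal (mean 124) was under background, as was every coat signal except that of epidermis replicate 2. The coat did not pass the test against the endosperm (-0.975, adjusted p = 0.22). Coat and endosperm thus cannot be ordered for GSTF7. WRKY9 (-1.79 ± 0.46) was above background on 4 of 9 filial arrays and was not separated without epidermis replicate 1 (-0.19). Its list of 37 had 9 lower and 5 higher (over all tested, 9.4% and 12.1%). BZIP42 (-1.66 ± 0.36) was above background on 3 of 9 filial arrays, all of the suspensor, and lost its call without the suspensor. Its embryo proper and endosperm arrays (means 107 and 180) were under background, so the coat cannot be ordered against them. It was not separated without epidermis replicate 2, hilum replicate 2 or inner integument replicate 1 (gaps -0.18, -0.35 and -0.78). KTI-2, a Kunitz trypsin inhibitor (-1.38 ± 0.33), was separated by a gap of 0.0076, and of 35 alternatives 8 ended that gap and 1 ended its call.

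The whole seed and leaf arrays did not enter the rule of separation. They did enter the background filter, which a probe set could pass through leaf or whole seed, and the shared estimate of spread. Over all tested probe sets 1322 (5.15%) were higher in whole seed than in leaf and 2063 (8.03%) lower. Among the 1013 separated above, 171 (16.9%) were higher in whole seed and 41 (4.05%) lower. The first share depended on single arrays, with 9.33% without leaf replicate 1, 11.8% without leaf replicate 2, 12.5% without whole seed replicate 1 and 9.54% without whole seed replicate 2, beside 2.61%, 2.76%, 2.88% and 2.18% of all tested. Among the 909 below, 65 (7.15%) were higher and 73 (8.03%) lower. With the stricter rule on single arrays the shares were 28.1% and 5.14% above, and 9.95% and 5.97% below. The share higher in whole seed was thus larger above than below on both rules, while most separated genes differed from leaf in neither direction. In leaf 88.4% of the genes above and 80.4% of those below were above background on both arrays, against 85.0% of all tested.

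Named genes showed both kinds of behaviour. Of the 31 above, 7 were higher in whole seed than in leaf and 1 was lower. AGL1L averaged 14900 in whole seed and 21.1 in leaf (8.87, adjusted p = 1.9e-07), MADS28 7200 and 15.2 (8.03, adjusted p = 1.5e-06), and SEP1 1190 and 49.7 (4.23, adjusted p = 2.3e-05). PRP1 (5.56, adjusted p = 0.0004), AOC3 (2.18, adjusted p = 0.00018), PRX2 (2.17, adjusted p = 0.00015) and GASA22 (2.13, adjusted p = 0.029) were the others. GS-2 was lower in whole seed than in leaf, at 5620 against 32000 (-2.54, adjusted p = 0.0002). For PIP2-8, PIP2-4 and GASA6 the leaf was about as bright as the whole seed, with differences of -0.10, -0.22 and -0.07 (adjusted p = 0.97, 0.93 and 0.98). Of the 28 named genes below, 7 were higher in whole seed than in leaf and 5 lower. SC-04 averaged 8480 and 90.2 (6.36, adjusted p = 1.5e-07), and LEC1-A 265 and 19.4 (3.13, adjusted p = 0.0033). IFS1 was lower in whole seed (-4.54, adjusted p = 0.00024), as were CHR5 (-3.46, adjusted p = 0.0025) and GSTU41 (-3.65, adjusted p = 1.5e-06).

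The level in whole seed lay nearer to the coat than to the filial tissues. For genes above, the whole seed was nearer the coat mean in 798 of 1013 (78.8%), with a median of 0.13 below it on the log2 scale (-0.13). For genes below it was nearer the coat in 552 of 909 (60.7%), with a median 0.69 above the coat and 1.1 below the filial mean (-1.1). The ground seed also holds tissue that was not captured and was extracted with another reagent, and the part of either in these positions was not tested.

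**Figure D3:**
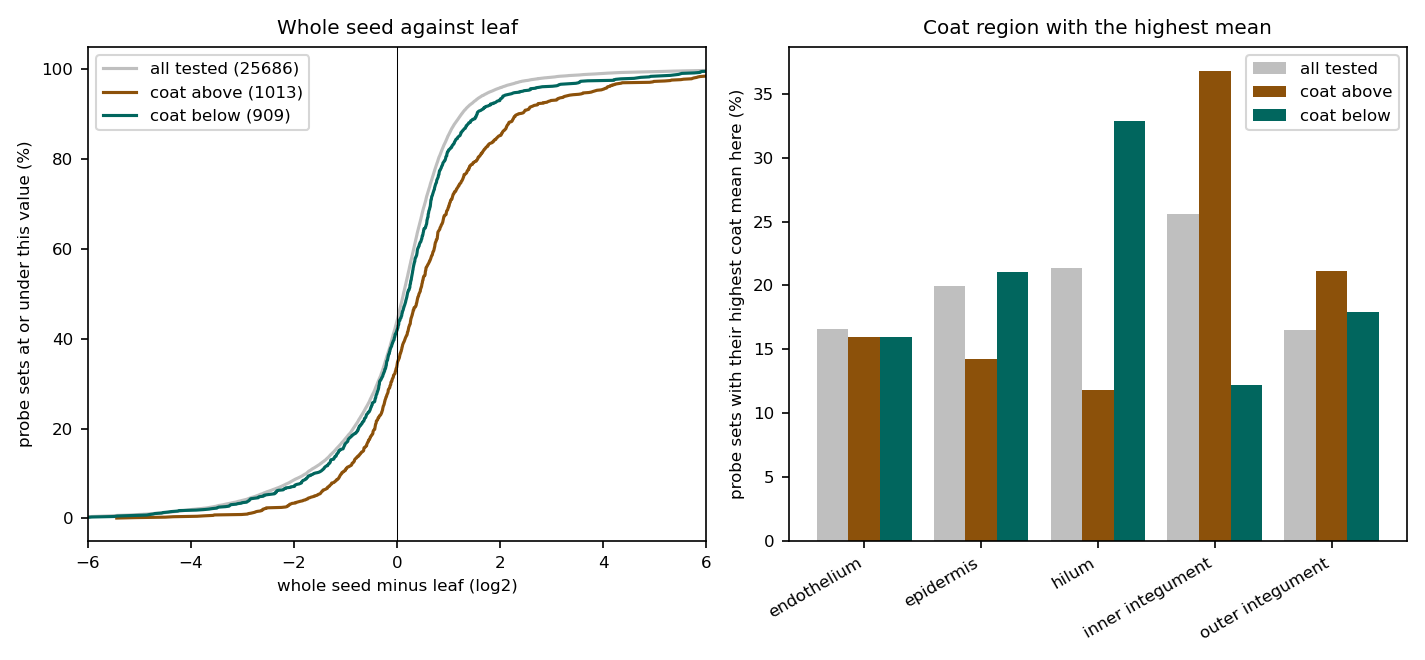
Left, the share of probe sets (%) at or under each whole seed minus leaf difference (log2) for all 25686 tested, 1013 separated above and 909 below. Right, the share of each set (%) whose highest coat mean falls in each region. The curve of genes above lies to the right of the other curves, with a median of 0.43 against 0.12 over all tested, and the inner integument and the hilum stand out in opposite sets.

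Some pathways were higher in the coat on average without dividing it from the filial tissues, and at least 1 coat region did not lie above every compartment. Flavonoid enzymes make the pigments and tannins of the coat. Of 15 tested, 8 were called higher and 2 lower, with a median of 1.39 (12.1% and 9.4% of all tested). None was separated, near the 3.94% above and 3.54% below over all tested. Without the suspensor 4 were separated above and 1 below, and over all alternatives 0 to 4 and 0 to 1. By the F test 13 of 15 differed among the coat regions beside 25.8% of all tested probe sets. All of the 8 higher genes had their highest mean in the epidermis (6) or the hilum (2), and 7 of 8 had their lowest in the outer (5) or inner integument (2). The following members are named after their values were seen. F3H, flavanone 3-hydroxylase, differed by 4.52 ± 0.48. It averaged 72700 in the epidermis, 42500 in the hilum and 24800 in the endothelium, but 1760 in the outer integument, under the 11500 of the suspensor. ANS2, anthocyanidin synthase, differed by 3.31 ± 0.34, with 33500 in the epidermis and 507 and 503 in the integuments, against 1180 in the suspensor. DFR1 (3.25 ± 0.40) and CHS8 (2.64 ± 0.38) had their highest means in the epidermis too.

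Genes for photosynthesis and chlorophyll showed a different pattern, in which the filial compartments differed. Of 12 tested, 8 were called higher in the coat and 1, SGR, lower, and 0 were separated above (over all tested, 12.1%, 9.4% and 3.94%). Against the endosperm 7 were higher and 1 lower, against the suspensor 6 and 1, but against the embryo proper 1 was higher and 6 were lower. Over all tested, 13.9% and 12.1%, 15.6% and 11.2%, and 10.7% each way were called. RCA14, a Rubisco activase gene, averaged 2180 to 9020 in the coat regions, 13100 in the embryo proper, 3090 in the suspensor and 122 in the endosperm. RCAALPHA had the same order, with 4580, 499 and 146 in the compartments and 217 to 4310 in the coat. CAB3, a chlorophyll-binding protein gene, was called at 1.03 ± 0.22, and 4 further probe sets were not called, 3 of them with the opposite sign. Without the endosperm CAB3 and RCA14 differed by -0.82 and -0.02.

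**Figure D4:**
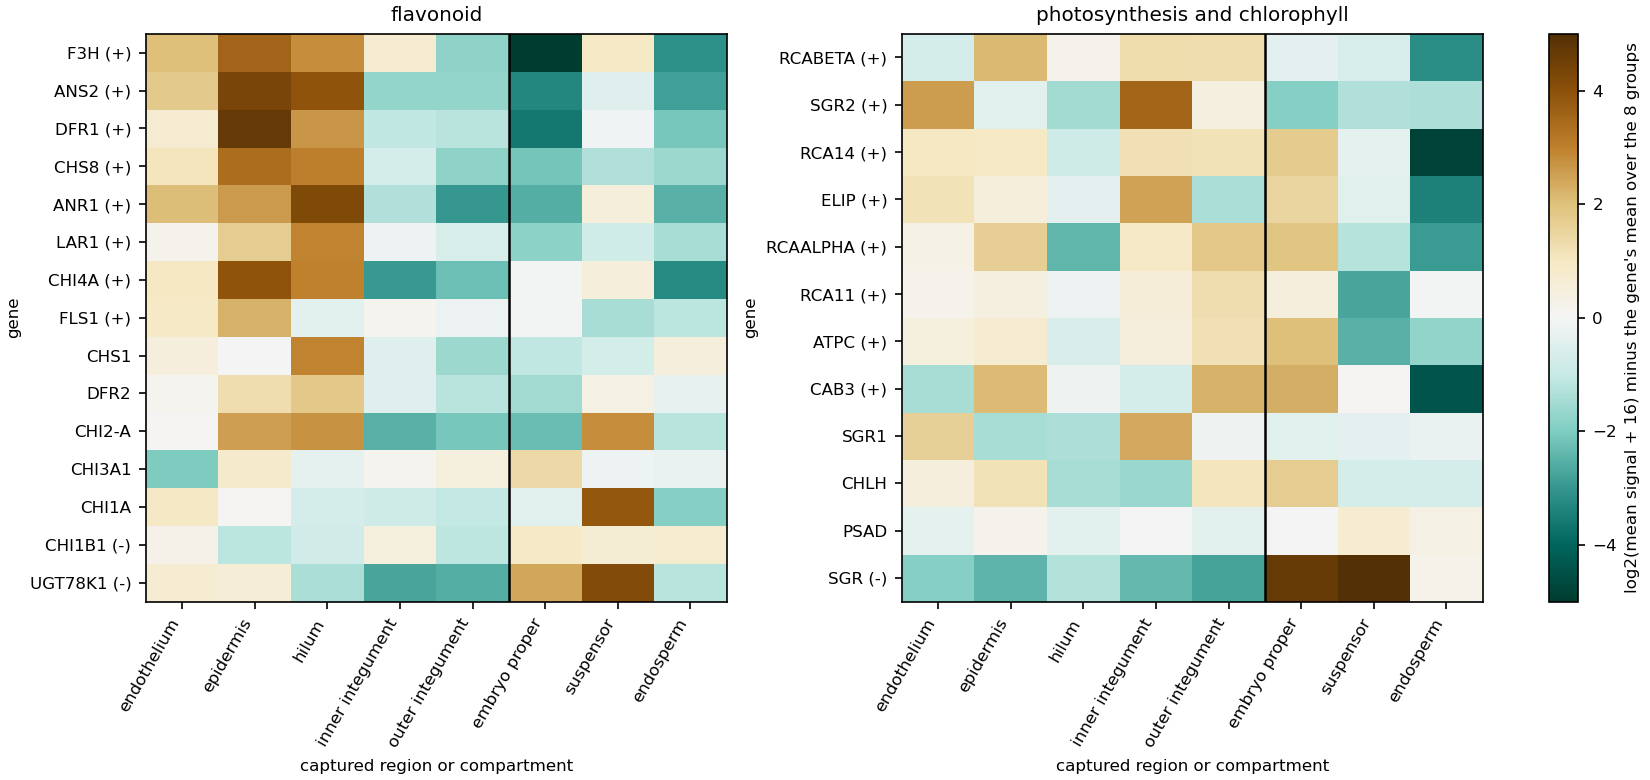
Log2(mean signal + 16) of each gene of the flavonoid and the photosynthesis and chlorophyll lists in the 8 captured groups, as the difference from that gene's mean over them (colour bar). Genes called higher in the coat are marked (+) and lower (-), and the black line divides coat regions from filial compartments. Flavonoid genes were high in the epidermis and hilum, and Rubisco activase genes were lowest in the endosperm or suspensor.

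Genes of lignin and phenylpropanoid synthesis gave different counts against the embryo proper and the suspensor. Of the 10 genes tested 3 were called higher, 1 lower, and 1 was separated above (over all tested, 12.1%, 9.4% and 3.94%). The separated gene was PRX2, which the peroxide-scavenging list also counts, and the lower gene was the peroxidase Ep. Against the embryo proper 7 were higher and 0 lower (10.7% each way over all tested). Against the suspensor 6 were lower (11.2%), and 2 were higher, near the 15.6% of all tested. C4H, cinnamate 4-hydroxylase, named after its values were seen, averaged 11700 in the endothelium and 491 to 5890 in the other coat regions, and 1620 in the suspensor against 130 in the embryo proper. Sugar transport and cleavage genes were mostly not called, with 0 of 14 separated (over all tested, 3.94% above and 3.54% below). Of them 0 were lower (9.4%) and 2 higher, near the 12.1% of all tested. Both were SWEET sugar exporters with their highest mean in the inner integument, SWEET24 at 62100 and SWEET13 at 5780, and SWEET24 also reached 16200 in the suspensor.

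The other lists held few separated genes, and their counts stand beside 12.1% called higher and 9.4% lower over all tested probe sets. Of 8 auxin genes 3 were higher and 1 lower, with LAX11, an auxin influx carrier, at 14400 in the endosperm against 209 to 1630 in the coat. Of 12 cell wall and surface protein genes 4 were higher and 2 lower, and of 20 protein folding genes 4 and 2. Among 11 ethylene genes 1 was higher and 0 lower. The 7 gibberellin, cytokinin and abscisic acid genes gave 1 each way, and the 5 seed storage proteins and inhibitors 1 higher and 2 lower. Of 8 genes for 14-3-3 proteins 0 were higher and 2 lower, both brightest in the endosperm and neither separated. The 4 saponin genes gave 1 higher, the 3 homeobox genes 1 each way, and the single cell cycle gene was not called.

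**Figure D5:**
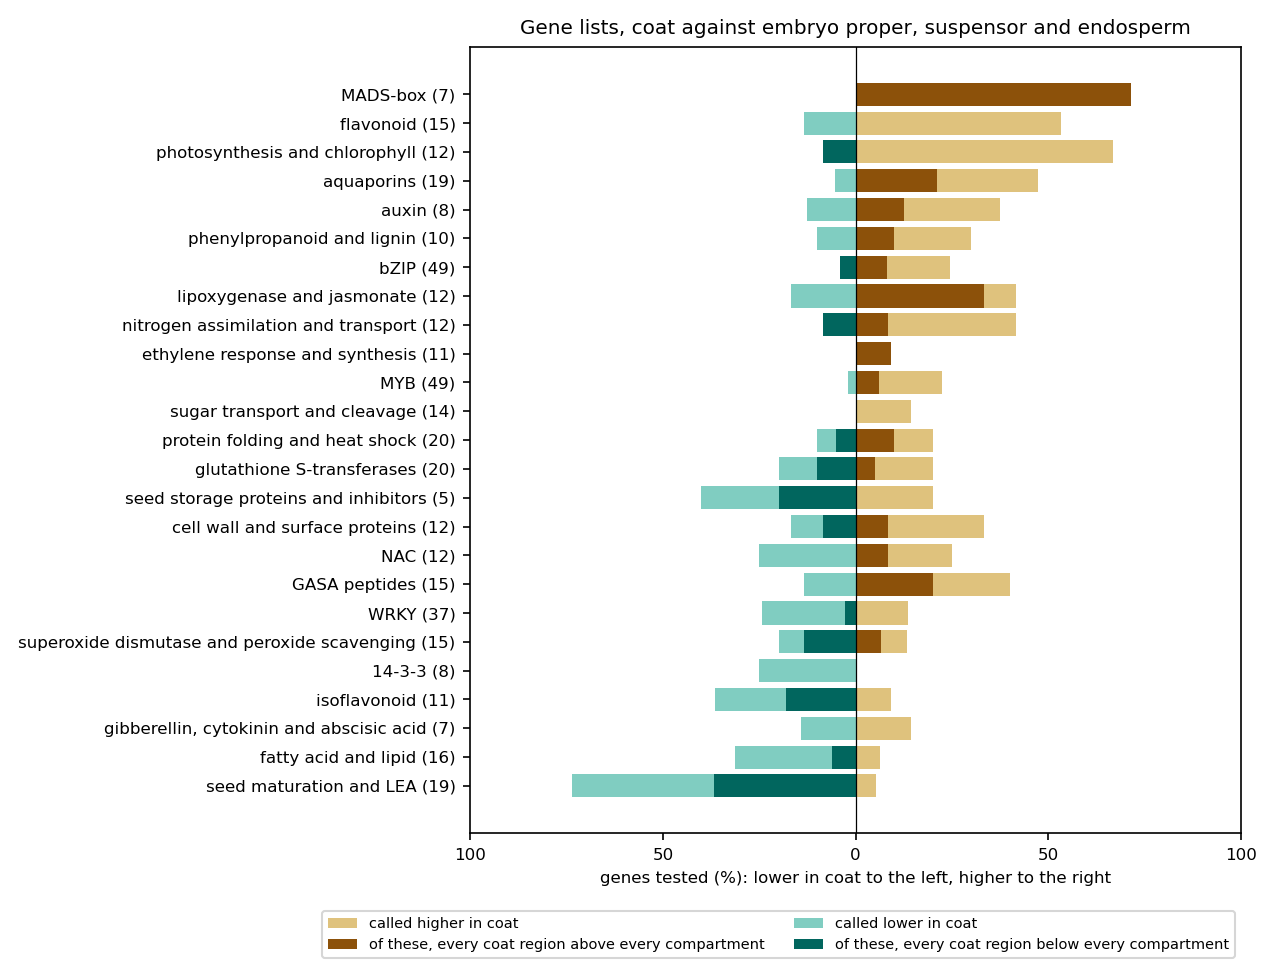
Share of the tested genes (%) of each list with at least 5 tested genes (number in brackets) called lower (left of 0) or higher (right of 0) in the coat, with the separated part in the dark shade. Lists are ordered by their median difference. MADS-box genes lie at the top with all called genes separated, flavonoid genes next with none separated, and seed maturation and LEA genes at the bottom.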

How the data were processed

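The authors deposited linear intensities for each probe set of each array. Per the submitters' processing notes GCOS 1.3 was used. How probes were summarised is not stated in the labels. The trimmed mean was 500.05 to 500.07 on every array, so no further scaling was applied. The scaling sets each gene against its array's total. The 37593 soybean probe sets were used, and the 25686 that exceeded background throughout 1 or more groups were tested. One model of 10 groups was fitted to log2(signal + 16) (limma 3.58.1, R 4.3.3) using all 23 arrays (lmFit, eBayes with a trend, 13 residual degrees of freedom), with 2-sided contrasts of group means and Benjamini-Hochberg adjustment over all tested probe sets. It was tested on simulated data. A fold on this scale understates the change of dim genes. "At least" folds set the brighter side against the background of the dimmer arrays.

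Genes came from the platform annotation: 8677 probe sets with 1 gene, 370 with several (not named) and 28546 without. Of 6031 genes 6010 were found in the RefSeq table of gene names. Lists count the brightest probe set per gene. Named were, in each direction, the 12 genes with an informative symbol and the widest gap among those separated on every array, the 2 probe sets with the widest gap, up to 3 separated genes per list, and the markers. Every other list member given by name (such as SIP1-6, GASA34, LOX3, LEA-2, LAX11, the flavonoid genes and the SWEET genes) was chosen after its values were seen. No sequence is printed. The members, rules and lists were chosen with earlier results of these data known. MIPS, MIPS4, AAPT1, GSA1, GST genes and ARF were taken out of lists that matched them by name only, before the lists' values were computed here.

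Alternatives were the offset, the filter, equal-median scaling, quantile normalization, array weights, captured arrays only, a replicate block, equal weight per array, leaving out compartments or arrays, and other rules of separation.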

Additional observations from a re-analysis of the deposited data

How the results depend on the processing

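The counts called in each direction between coat and filial tissues stayed within 1.5 times of 3097 and 2415 under every alternative tried, and the counts of separated probe sets under every change of scale, offset, filter or weights. The share of calls that were higher in the coat was 56.2%, 55.9% to 60.7% under other scalings and offsets, and 54.9% without both arrays of high background. Rules and compartments moved the separated counts. Requiring every array to separate left 253 above and 201 below, a gap of at least 2-fold left 189 and 126, and 1 probe set per annotated gene left 268 and 227. Below, 545 had every filial array above background, 1539 were separated whether called or not, and 1555 were separated without the suspensor. Without the arrays of high background the separated counts were 1052 and 1093, of which 829 and 746 were among the main 1013 and 909, and 340 and 422 were separated on every array.

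With single arrays left out, the ranges were 2982 to 3182 higher and 2287 to 2671 lower in the coat, and 959 to 1049 and 860 to 1024 separated. They were 2187 to 3001 and 2182 to 2983 against the embryo proper, 3656 to 4149 and 2638 to 3076 against the suspensor, 3107 to 3777 and 2696 to 3433 against the endosperm, and 5384 to 8010 among coat regions. Whole seed against leaf ranged from 572 to 1645 higher and 1101 to 2421 lower. Its lowest counts came without whole seed replicate 2 (572) and leaf replicate 2 (1101), and those without whole seed replicate 1 (760 and 1304) and leaf replicate 1 (693 and 1289) were also over 1.5 times lower, with 1 array left in the group and its spread taken from the other groups. Array weights gave 3131 and 3899, and then 28.4% of the separated genes above and 15.6% of those below were higher in whole seed, against 12.2% of all tested.

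Deviations of captured arrays from their group means were correlated between arrays of the same replicate number. The 56 correlations ran from -0.0635 to 0.263, with 3 over 0.1. In a coat group of 2 arrays both deviations mirror each other, so these values are not independent. They do not settle whether the numbers pair the arrays. With the number as a replicate block 3146 and 2376 probe sets were called and 1024 and 882 separated, of which 950 and 827 were shared.

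Of 59 named separated genes 54 kept their call and 41 their separation under every alternative that tested them, 35 for all but WRKY9 and HSP22.3 (34 each). Calls were lost by ERF3 without the endosperm, CHR5 and BZIP42 without the suspensor, and HSP22.3 and KTI-2 at an offset of 64. CAB3 (-0.817) and RCA14 (-0.0245) reversed without the endosperm. Signals under background have no order, which limits genes whose higher side is partly dim.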

Other observations

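At 905 of the 25686 tested probe sets (3.52%) the coat was called higher than 1 filial compartment and lower than another, so the equal-weight contrast averages over opposite differences there. At 412 of them the coat lay below the embryo proper, at 400 below the suspensor and at 189 below the endosperm, in each case while above at least 1 other compartment. These comparisons share the coat arrays. Against all 3 compartments at once 846 probe sets were called higher in the coat and 466 lower.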
